A study of Mus musculus with 14 samples.

Results

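Macrophages lacking Ezh2 were compared with wild-type (WT) macrophages after both had spent 24 h in conditioned medium from the mouse liver cancer line Hepa1-6. The comparison takes the 3 knockout and the 4 WT libraries of this conditioned medium (CM), 7 of the study's 14 libraries, chosen by their labels, and covers all expressed genes. The other 7 libraries, 3 knockout and 4 WT, come from control medium (complete DMEM, a standard culture medium) and enter where the response in CM is set against that without it. The cells were bone marrow-derived macrophages, grown from marrow over 7 to 10 days with medium of L929 cells, a source of macrophage colony-stimulating factor. Knockout cells came from Ezh2fl/fl;LysM-Cre+/- mice and WT cells from littermate controls. LysM-Cre drives the recombinase Cre from the lysozyme M gene (Lyz2) in myeloid cells only once they mature, and its insertion disrupts that copy of Lyz2. The labels give neither the age or sex of the mice nor whether the littermates carry floxed alleles or Cre. Whether the libraries of a group are separate animals is not stated either, and p-values therefore reflect only sample-to-sample spread, possibly technical. Medium conditioned by another cell type is not part of the comparison.

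EZH2 is the catalytic subunit of Polycomb repressive complex 2 (PRC2), which places methyl groups on lysine 27 of histone H3 and keeps developmental and cell type-specific genes silent. Its SET domain, near the C terminus, carries the enzymatic activity, and EZH1 is a paralog that can take its place in the complex. In macrophages PRC2 is known for its part in proliferation and in the setting of inflammatory and metabolic genes.

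Counts summed over distinct exons came to 40.2, 48.2 and 61.5 M in the knockout libraries and to 41.3, 47.6, 80.4 and 85.8 M in WT libraries 1 to 4. WT libraries 3 and 4 stood apart: on the second principal component of log expression, with 14.9% of the variance, they lay at -31.8 and -31.5, against 3.33 and 4.83 for WT libraries 1 and 2 and 15.1 to 22.2 for the knockout. The labels name no batch, but the main counts and many genes are therefore given against all 4 WT libraries and then against WT libraries 1 and 2 alone. Where no second value is printed, the values are against all 4 WT libraries. Rn45s, the ribosomal RNA precursor, stood at 1588, 1076 and 1180 CPM in knockout and 679, 789, 158 and 166 CPM in WT libraries. CPM, edgeR's unit, are read counts scaled to a common library total. The values differed within WT as well as between the groups. In control medium Rn45s stood at 861, 825 and 861 CPM in knockout and 1405, 1795, 203 and 280 CPM in WT libraries. The part of Rn45s in the results was not tested. Xist had 0 to 3 counts in each library. Ddx3y, a gene of the Y chromosome, stood at 79.6 to 95.5 CPM in knockout and 100.7 to 108.3 CPM in WT libraries of CM. RNA of the Y chromosome was thus present in all of them.

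A pair of Ezh2 coding exons was nearly absent from the knockout libraries. The labels do not say which exons the floxed allele removes. Ezh2 lies on chr6:47530274-47595270 (mm10, minus strand), and the 2 exons with this loss were exon 18, chr6:47531985-47532065, and exon 19, chr6:47531741-47531825, both coding. They are printed here, 5′ to 3′ on the coding strand from GENCODE transcripts of GRCm38, (release M21, credited to the annotation and not read from a sample), since these 166 bases are what the knockout libraries largely lack.
Ezh2 exon 18: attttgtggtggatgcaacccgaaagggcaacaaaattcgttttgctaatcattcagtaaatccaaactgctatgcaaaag
Ezh2 exon 19: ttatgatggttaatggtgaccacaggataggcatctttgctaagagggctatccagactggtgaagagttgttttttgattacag
Counts in these 2 exons were 10, 5 and 20 in the knockout and 99, 114, 166 and 169 in the WT libraries, while the 15 exons from 3 to 17 held 895, 904 and 1398 against 918, 1302, 2059 and 2424. Per base, exons 18 and 19 reached 12.8, 6.32 and 16.4% of exons 3 to 17 in the knockout libraries (11.8 ± 5.08%, SD, n = 3). The 4 WT libraries reached 123, 100.1, 92.1 and 79.7% (98.8 ± 18.3%, n = 4), far above all knockout libraries. The exons were chosen with their values known, so no test is given. Whether the remaining counts come from a few cells or from all cells cannot be told apart in bulk RNA.

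**Figure D1:**
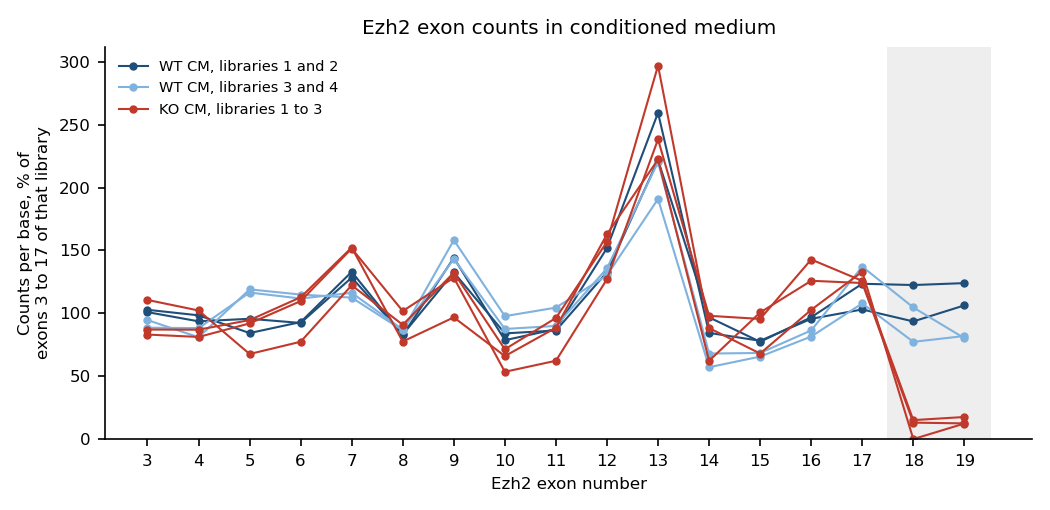
Counts per base of each Ezh2 coding exon from 3 to 19, as a percentage of exons 3 to 17 of the same library, with 1 line for each of the 7 CM libraries. In the shaded exons 18 and 19 the 3 knockout lines lie between 0 and 17.6%, and the 4 WT lines between 77.3 and 124%.

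Summed over all exons, Ezh2 stood at 27.8, 24.6 and 28.9 CPM in the knockout libraries and 31.4, 37.8, 34.9 and 38.6 CPM in the WT libraries. This sum includes the coding exons that the knockout libraries largely lack, so a lower sum partly restates that loss. Whether the rest of the transcript was lower was not tested, and the values here are for the sum. The groups did not overlap, and the log2 fold change, knockout against WT, was -0.40 ± 0.10 (SE; edgeR quasi-likelihood test, Benjamini-Hochberg adjusted p = 0.033). Against WT libraries 1 and 2 it was -0.34, and the call at an adjusted p below 0.05 was lost (0.054). It was also lost as single libraries were left out (0.086 without KO library 1, 0.12 without KO library 2, 0.076 without KO library 3, 0.051 without KO control library 1, 0.056 without WT library 2, 0.068 without WT library 3 and 0.099 without WT library 4). Of 13 tested PRC2 genes, 1 was called lower, Ezh2 itself, and 1 higher, Rbbp7, a histone-binding subunit (0.20 ± 0.05), against 3.1% of all genes called higher and 1.49% called lower. The Rbbp7 call did not hold against WT libraries 1 and 2 (adjusted p = 0.14). Ezh1, the paralog, did not pass the test (0.02 ± 0.05, adjusted p = 0.8; 0.05 and 0.72 against WT libraries 1 and 2), with 85.99, 79.2 and 91.7 CPM in the knockout libraries and 82.7, 83.1, 85.2 and 85.7 CPM in the WT libraries. Eed, the subunit that reads the methyl mark, stood at -0.19 ± 0.07 (adjusted p = 0.13). In Polycomb repressive complex 1, which ubiquitinates histone H2A, Bmi1, a ring finger subunit, was called higher (0.28 ± 0.07). The call did not hold against WT libraries 1 and 2 (adjusted p = 0.054). Among 19 H3K27 demethylases and opposing methyltransferases edgeR called 0, with 6 at an unadjusted p below 0.05. DESeq2 called 0 and limma-voom 2, both lower.

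Lyz2, the lysozyme gene that carries Cre, fell in the knockout libraries, to 9313, 9569 and 9553 CPM from 21118, 19051, 21709 and 19954 CPM in WT. All knockout libraries lay below all WT libraries (-1.11 ± 0.07, adjusted p = 1.8e-06; -1.08 and 2.1e-10 against WT libraries 1 and 2), and the difference in control medium was -1.10 ± 0.07. This gene lies on chr10:117277541-117282272, and its near-identical neighbour Lyz1 can share its reads. Lyz1 stood at 174, 905 and 156 CPM in the knockout libraries and 673, 434, 1990.1 and 1552 CPM in the WT libraries, so the groups overlapped and the difference did not pass the test (-1.497 ± 0.68, adjusted p = 0.2). Because the labels do not say whether WT littermates carry Cre, the loss of Ezh2 and the presence of Cre cannot be told apart.

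Across the 13311 genes tested, 413 were called higher in the knockout (3.1%) and 198 lower (1.49%). All 611 had the same sign against WT libraries 1 and 2 alone, where 349 of 13345 genes were called higher (2.62%) and 129 lower (0.967%). The 2 fits share the knockout libraries and WT libraries 1 and 2, so equal signs are largely built in. Of the 611, 330 were called in both fits (246 higher, 1.85%, and 84 lower, 0.631%), and in 329 of these the 3 knockout libraries also did not overlap the 4 WT libraries (245 higher, 1.84% of all genes, and 84 lower, 0.631%, together 2.47%). These 329 genes are called firm below, a label that rests on shared libraries and is not an independent check. The absence of overlap adds little to it, since it held for 602 of the 611 (20.9% of all genes). Changes were small: the median log2 change was 0.53 over the genes called higher, -0.38 over those called lower and 0.00 over all genes, and 24 firm genes rose and 11 fell by 2-fold or more. The counts depended on single libraries, with 162 higher and 55 lower without KO library 3, 242 and 65 without KO library 1, 256 and 107 without KO library 2, 211 and 81 without WT library 3, and 193 and 66 without WT library 4.

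**Figure D2:**
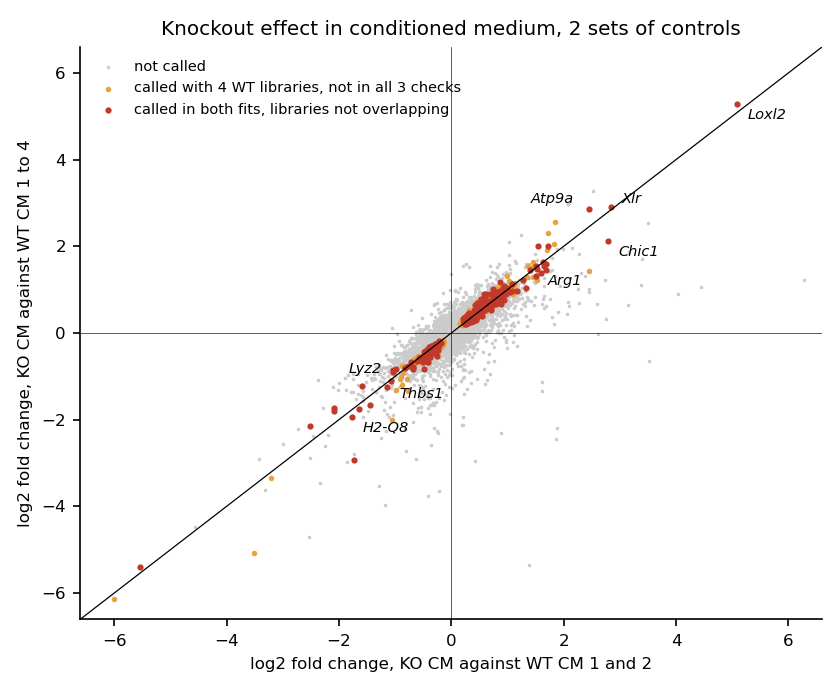
Log2 fold change of each tested gene against all 4 WT libraries (vertical) and against WT libraries 1 and 2 alone (horizontal), with the line of equality. The 2 axes share the knockout libraries and WT libraries 1 and 2. The 329 firm genes (red) lie near the line on both sides, from Loxl2 at 5.28 and 5.09 downwards, and 1 gene that was not called lies outside the axes.

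Of the gene lists examined, mitosis held the most calls, all of them higher in the knockout. Each list count below is to be read beside the 3.1% of all genes called higher and the 1.49% called lower. Of 40 tested mitosis genes, 32 were called higher and 0 lower (0 lower by DESeq2 and limma-voom too, and at an unadjusted p below 0.05), 27 of them in both fits, and the log2 fold change was above 0 for all 40 (above 0 for 50.2% and below 0 for 49.8% of all genes). In 36 of the 40 all knockout libraries lay above all WT libraries, which held for 11.3% of all genes, while 9.59% lay below. Their median change was 0.55, and 0.47 against WT libraries 1 and 2. Summed over the list, knockout libraries held 1708, 1773 and 1988 CPM and WT libraries 1223, 1415, 1139 and 1223 CPM, so KO library 3 was the highest and WT library 2 the highest of its group. A difference in the share of dividing cells and one in RNA per cell cannot be told apart in these bulk samples. The number called fell to 11 without KO library 3, 21 without KO library 2, 15 without WT library 3 and 16 without WT library 4, and the list's median in these fits was 0.48, 0.56, 0.51 and 0.56.

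Top2a, the topoisomerase that untangles sister chromatids, had 179, 184 and 214 CPM in the knockout libraries and 117, 136, 116 and 131 CPM in the WT libraries. No knockout library overlapped a WT library (0.63 ± 0.10, adjusted p = 0.0028; 0.61 and 0.0025 against WT libraries 1 and 2). Melk, a kinase of dividing cells, rose by a larger factor (0.90 ± 0.12, adjusted p = 0.00059; 0.93 and 0.00046 against WT libraries 1 and 2), from 8.65, 9.399, 9.36 and 9.12 CPM in WT to 16.1, 16.1 and 18.99 CPM. Kif4, a chromosome-binding kinesin encoded on the X chromosome, rose from 11.4, 14.3, 12.9 and 11.9 to 22.1, 20.5 and 27.1 CPM (0.88 ± 0.14, adjusted p = 0.0028). Dlgap5, a spindle protein, rose as well (0.71 ± 0.10, adjusted p = 0.0015; 0.67 against WT libraries 1 and 2). Kntc1, which recruits checkpoint proteins to kinetochores, and Pbk, a mitotic kinase, were outside the list and among the 12 largest increases (1.02 ± 0.18 and 0.96 ± 0.18). Kntc1 was lower in WT libraries 3 and 4 (7.998 and 9.52 CPM) than in 1 and 2 (13.1 and 13.8), so its change was smaller against the latter, at 0.74.

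**Figure D3:**
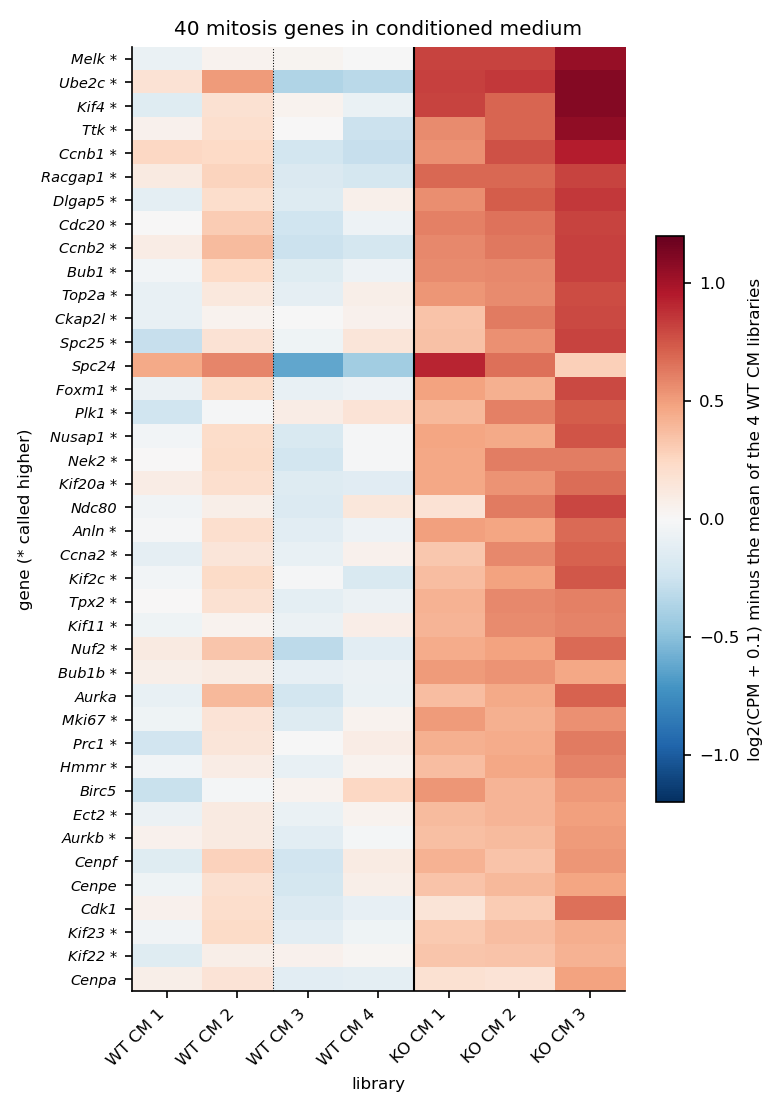
Log2(CPM + 0.1) of 40 mitosis genes minus the mean of the 4 WT CM libraries, by library, ordered by log2 fold change, with an asterisk at the 32 genes called higher. The 3 knockout columns are above the WT mean in all 40 genes, most of all in KO library 3, and WT library 2 is mostly the highest WT column.

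Genes of DNA replication moved less. Of 44 tested, 13 were called higher and 0 lower (1 lower by DESeq2, by limma-voom and at an unadjusted p below 0.05), 9 in both fits, with a median of 0.26 (0.24 against WT libraries 1 and 2), and 5 were called without KO library 3. Cdc45, which activates the replicative helicase, had 8.65, 10.99 and 13.96 CPM in the knockout libraries and 5.39, 6.47, 4.85 and 5.14 CPM in the WT libraries (1.04 ± 0.17, adjusted p = 0.0039; 0.93 and 0.012 against WT libraries 1 and 2). The helicase subunit Mcm7 rose by 0.56 ± 0.10, Mcm10, which helps to start the helicase, by 0.71 ± 0.13 and Rrm1, the large subunit of ribonucleotide reductase, by 0.49 ± 0.07 (adjusted p = 0.0061, 0.0072 and 0.001). In control medium 1 of the 44 was called higher, with a median of 0.06. No member passed the test of the difference between the media.

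Among the regulators of the cell cycle, Ccnd2, a D cyclin that drives entry into S phase, rose from 6.32, 6.75, 6.84 and 7.75 CPM in WT to 15.6, 11.9 and 12.7 CPM (0.95 ± 0.11, adjusted p = 0.00035; 1.04 and 0.00038 against WT libraries 1 and 2). All knockout libraries were higher, and KO library 1 was the highest. The inhibitors Cdkn1a (p21) and Cdkn2c (p18) also rose, by 0.25 ± 0.05 and 0.37 ± 0.07, in both fits. Their calls were lost without single libraries (Cdkn1a, adjusted p = 0.063 without KO library 2, 0.069 without KO library 3 and 0.056 without WT library 3; Cdkn2c, 0.052 without KO library 2). Cdkn1b (p27) was called lower (-0.34 ± 0.08), but not against WT libraries 1 and 2 (adjusted p = 0.083). Cdkn2a, a classic PRC2 target, stood at 3.298, 2.62 and 2.72 CPM in the knockout libraries and 1.91, 2.996, 1.67 and 2.01 CPM in the WT libraries, which overlapped (0.43 ± 0.20, adjusted p = 0.21).

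The promoters of the mitosis genes shared sequence features that the expression values did not use. Promoters here are 250 bases before to 50 after the RefSeq start (GRCm38.p6), matched for 10448 tested genes. TTTGAA, the core of the cell cycle genes homology region, was present on either strand in 25 of 33 mitosis promoters (75.8%), in 23.6% of the promoters of genes called higher, in 9.03% of those called lower and in 12.3% of all. CCAAT, the box bound by NF-Y, was present on either strand in 78.8% of mitosis promoters and 39.3% of all, and both motifs together in 66.7% and 5.39%. The E2F motif, searched as TTTCGCGC, TTTGGCGC, TTTCCCGC and TTTGGCGG on both strands, was present in 38.9% of DNA replication promoters, 6.06% of mitosis promoters and 4.55% of all. A match describes these letters and is not a measured site. The promoters of Ube2c, the ubiquitin-conjugating enzyme of the anaphase-promoting complex (chr2:164769679-164769978, plus strand), Cdc20, an activator of that complex (chr4:118437294-118437593, minus strand), and Ccnb2, a mitotic cyclin (chr9:70421505-70421804, minus strand), are printed because all 3 genes rose and hold both motifs, in capitals on either strand.
Ube2c: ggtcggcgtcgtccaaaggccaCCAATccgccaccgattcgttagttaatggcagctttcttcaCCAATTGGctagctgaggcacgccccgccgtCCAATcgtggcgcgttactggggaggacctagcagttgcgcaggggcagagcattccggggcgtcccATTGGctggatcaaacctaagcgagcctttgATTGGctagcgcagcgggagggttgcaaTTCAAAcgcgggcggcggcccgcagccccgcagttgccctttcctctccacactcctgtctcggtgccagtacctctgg
Cdc20: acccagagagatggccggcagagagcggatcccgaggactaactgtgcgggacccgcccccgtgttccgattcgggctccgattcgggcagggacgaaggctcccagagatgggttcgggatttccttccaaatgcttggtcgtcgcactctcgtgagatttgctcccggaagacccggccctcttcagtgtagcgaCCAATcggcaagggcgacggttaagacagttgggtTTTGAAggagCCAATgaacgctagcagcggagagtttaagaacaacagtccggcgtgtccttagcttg
Ccnb2: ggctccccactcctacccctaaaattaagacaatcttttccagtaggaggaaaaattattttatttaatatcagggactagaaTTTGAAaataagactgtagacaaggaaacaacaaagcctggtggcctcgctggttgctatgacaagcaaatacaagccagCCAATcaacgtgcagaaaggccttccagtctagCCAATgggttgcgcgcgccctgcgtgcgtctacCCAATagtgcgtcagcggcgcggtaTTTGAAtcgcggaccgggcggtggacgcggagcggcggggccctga
The 3 genes had log2 fold changes of 0.89 ± 0.20, 0.68 ± 0.11 and 0.66 ± 0.15 (adjusted p = 0.018, 0.0028 and 0.018), and 0.59, 0.54 and 0.45 against WT libraries 1 and 2. Outside the 2 lists the genes called higher held TTTGAA in 19.6% of promoters. Melk rose with neither TTTGAA nor CCAAT in its window, which holds the E2F motif TTTGGCGG.

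Several of the largest increases were in genes with a low level in the WT libraries of CM. Of 1891 tested genes with a WT mean below 1 CPM, 34 were called higher (1.80%) and 8 lower (0.423%), and 9 of the 34 were firm. Both shares were below those over all genes, 3.1% higher and 1.49% lower. These genes were taken for their low WT values, and such a gene can pass the filter through its knockout libraries, so the balance of directions is given as a description. Loxl2, a lysyl oxidase that crosslinks collagen, had 37, 53 and 35 counts in the knockout libraries and 2, 0, 0 and 3 in the WT libraries. All knockout libraries were far above all WT libraries, and the fitted change of 5.28 ± 0.69 (adjusted p = 0.00071) depends on the prior count at such levels. Atp9a, a phospholipid flippase, had 42, 41 and 70 counts against 11, 5, 8 and 9 (2.87 ± 0.38, adjusted p = 0.00071). Chic1, an X-linked membrane protein gene, had 37, 31 and 49 counts against 2, 8, 16 and 21 (2.12 ± 0.36, adjusted p = 0.0042). Arhgap29, a GTPase-activating protein, Pgm5, a phosphoglucomutase relative of muscle adhesion sites, and Reck, a membrane-bound inhibitor of metalloproteinases, rose by 2.01 ± 0.38, 2.00 ± 0.18 and 1.65 ± 0.24. Pcsk1, a prohormone convertase of endocrine cells, and Dnaja4, a chaperone, rose by 1.59 ± 0.27 and 1.45 ± 0.24. These 8 were all called in control medium too, with changes of 1.11 (Pcsk1) to 5.13 (Loxl2), and in each fit that left out 1 library. Pgm5 had 158, 165, 255 and 373 counts in the WT libraries of control medium, and Pcsk1 had 146, 104, 149 and 123.

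At a higher level, Xlr, an X-linked lymphocyte-regulated gene, rose from 0.827, 1.79, 1.18 and 1.26 CPM in WT to 7.51, 10.6 and 10.4 CPM (2.91 ± 0.23, adjusted p = 9.8e-06; 2.85 and 1.8e-05 against WT libraries 1 and 2). It belongs to a multigene family, so its counts may include reads of related copies. Bmpr1a, a receptor for bone morphogenetic proteins, rose from 1.53, 1.64, 1.56 and 1.41 to 5.302, 4.23 and 3.97 CPM (1.55 ± 0.18, adjusted p = 0.00026; 1.505 and 0.0011 against WT libraries 1 and 2). Both genes separated all knockout from all WT libraries. Uchl1, a ubiquitin hydrolase known from neurons, rose to 44.4, 44.4 and 53.6 CPM from 22.8, 26.9, 19.2 and 20.2 CPM (1.09 ± 0.14, adjusted p = 0.00048), and Cdc42bpa, a kinase that acts on myosin, to 22.2, 21.4 and 21.1 from 10.98, 11.5, 9.67 and 9.603 CPM (1.05 ± 0.09, adjusted p = 2.5e-05). Developmental transcription factors, the classic targets of PRC2, held 1 call, beside 3.1% of all genes called higher and 1.49% lower. Of 86 developmental transcription factors, 17 had enough counts to be tested and 44 had 0 counts in all 7 CM libraries. Of the 17, 1 was called higher, Eya1, a homeobox cofactor and phosphatase (0.39 ± 0.09, adjusted p = 0.027). Against WT libraries 1 and 2 it stood at 0.48 (adjusted p = 0.0088). Eya1 was expressed in WT, at 1200, 1440, 2709 and 2648 counts, with 1605, 2014 and 2629 in the knockout libraries. Its call was lost without some libraries (adjusted p = 0.059 without KO library 1, 0.072 without KO library 2, 0.12 without KO library 3, 0.055 without WT library 1 and 0.063 without WT library 4).

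The paired X-linked genes Col4a5 and Col4a6, which encode chains of the basement membrane collagen IV, both rose. Their starts lie 1343 bases apart in opposite orientation, and the 2 windows on chrX:141474027-141474326 (Col4a6, minus strand) and chrX:141475169-141475468 (Col4a5, plus strand) are printed because the pair moved together. Capitals mark CCAAT on either strand, which the Col4a6 window does not hold.
Col4a6: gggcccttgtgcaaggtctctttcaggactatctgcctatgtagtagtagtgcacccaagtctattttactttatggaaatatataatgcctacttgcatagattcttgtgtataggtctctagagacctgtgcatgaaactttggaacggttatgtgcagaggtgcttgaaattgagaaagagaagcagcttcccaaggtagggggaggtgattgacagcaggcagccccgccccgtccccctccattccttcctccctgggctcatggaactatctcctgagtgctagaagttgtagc
Col4a5: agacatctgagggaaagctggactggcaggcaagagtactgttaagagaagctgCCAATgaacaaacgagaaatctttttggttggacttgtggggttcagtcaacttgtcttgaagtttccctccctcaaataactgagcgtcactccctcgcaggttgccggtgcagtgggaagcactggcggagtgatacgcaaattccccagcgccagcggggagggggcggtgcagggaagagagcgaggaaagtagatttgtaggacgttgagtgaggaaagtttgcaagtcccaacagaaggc
Col4a6 stood at 88.8, 77.2 and 73.1 CPM in the knockout libraries and 34.5, 26.4, 30.05 and 24.9 CPM in the WT libraries (1.46 ± 0.11, adjusted p = 7.3e-06; 1.40 and 1.5e-05 against WT libraries 1 and 2). Col4a5 stood at 159, 146 and 143 CPM in the knockout libraries and 96.7, 71.4, 73.2 and 67.96 CPM in the WT libraries (0.95 ± 0.11, adjusted p = 0.00034; 0.84 and 0.00016 against WT libraries 1 and 2). WT library 1 was the highest WT library in both, still below every knockout library. Fbln5, a protein of elastic fibres, also rose (0.73 ± 0.10, adjusted p = 0.00085). Of 33 tested genes of collagens and matrix, 6 were called higher, all in both fits (Col4a5, Col4a6, Fbln5, Loxl2, Tgfbi and Vcan), and 2 lower (Emilin1 and Thbs1), with a median of 0.14. Emilin1 was not called against WT libraries 1 and 2 (adjusted p = 0.11). Thbs1, thrombospondin 1, a matrix protein that activates TGF-beta and inhibits vessel growth, fell from 95.4, 135, 88.4 and 177 to 53.9, 53.02 and 49.5 CPM (-1.25 ± 0.22, adjusted p = 0.0052; -1.14 and 0.00013 against WT libraries 1 and 2). The WT libraries were spread widely, with 2 and 4 highest, and the knockout libraries lay close together below them.

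Matrix proteases gave 3 increases and 0 decreases among 24 tested genes, beside 3.1% higher and 1.49% lower of all genes. DESeq2 and limma-voom also called 0 lower, and 3 were lower at an unadjusted p below 0.05. Mmp8, neutrophil collagenase, had 86.3, 88.02 and 93.4 CPM in the knockout libraries and 43.3, 48.5, 45.5 and 48.5 CPM in the WT libraries (0.94 ± 0.09, adjusted p = 3.5e-05; 0.97 and 2.3e-05 against WT libraries 1 and 2). Mmp13, a collagenase, rose from 14.1, 16.8, 13.1 and 16.5 to 28.7, 22.4 and 25.6 CPM (0.76 ± 0.09, adjusted p = 0.00049). Mmp12, macrophage elastase, was called higher against all WT libraries (0.39 ± 0.10, adjusted p = 0.044), but not against WT libraries 1 and 2 (0.12). Mmp8 was the single called gene of 11 tested neutrophil markers, whose sum was 189 to 215 CPM in knockout and 131 to 148 CPM in WT libraries. That sum holds Mmp8 itself, and 8 of the 11 markers had a log2 fold change below 0, with a median of -0.09 (-0.27 against WT libraries 1 and 2). Ly6g, the defining surface marker, had 0 counts in all 7 libraries. The part of neutrophils in the Mmp8 result was not tested.

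Arg1, arginase 1, which consumes arginine and marks alternatively activated and tumor-associated macrophages, was among the 12 largest increases. It stood at 194, 182 and 198 CPM in the knockout libraries and 59.3, 73.4, 61.3 and 78.9 CPM in the WT libraries, and each knockout library was more than 2-fold above each WT library (1.49 ± 0.17, adjusted p = 0.00026; 1.53 and 1.5e-05 against WT libraries 1 and 2). With DESeq2 the fold change was 1.49 and the call was lost (adjusted p = 0.155). In control medium Arg1 had 16, 3 and 0 counts in the knockout and 0, 0, 8 and 4 in the WT libraries, too few to compare (1.38 ± 0.90, adjusted p = 0.34). Of 39 tested genes of alternative activation, 4 were called higher (Arg1, Cd36, Clec7a and Tgfbi) and 3 lower (Cd209a, Tgm2 and Vegfa), all 7 in both fits, with a median of 0.13. Cd36, a scavenger receptor for fatty acids and oxidized lipoproteins, rose from 327, 369, 327 and 370.2 to 513, 511 and 588 CPM (0.63 ± 0.10, adjusted p = 0.0031; 0.64 and 0.0011 against WT libraries 1 and 2). Clec7a (dectin-1), a receptor for fungal beta-glucan, rose from 449, 391, 447 and 393 to 578, 585 and 601 CPM (0.49 ± 0.06, adjusted p = 0.00038; 0.49 and 0.00035 against WT libraries 1 and 2). Tgm2, transglutaminase 2, fell from 91.3, 106, 85.6 and 119 to 60.7, 63.4 and 67.6 CPM (-0.65 ± 0.09, adjusted p = 0.0015; -0.62 and 0.00024 against WT libraries 1 and 2). Other markers of this state did not pass against all WT libraries: the mannose receptor Mrc1 stood at 0.23 ± 0.10 (adjusted p = 0.19; 0.019 against WT libraries 1 and 2), the resistin-like gene Retnla at 0.64 ± 0.44 (0.4), the chitinase-like gene Chil3 at -0.45 ± 0.43 (0.55) and the haemoglobin receptor Cd163 at -0.00 ± 0.08 (0.99).

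**Figure D4:**
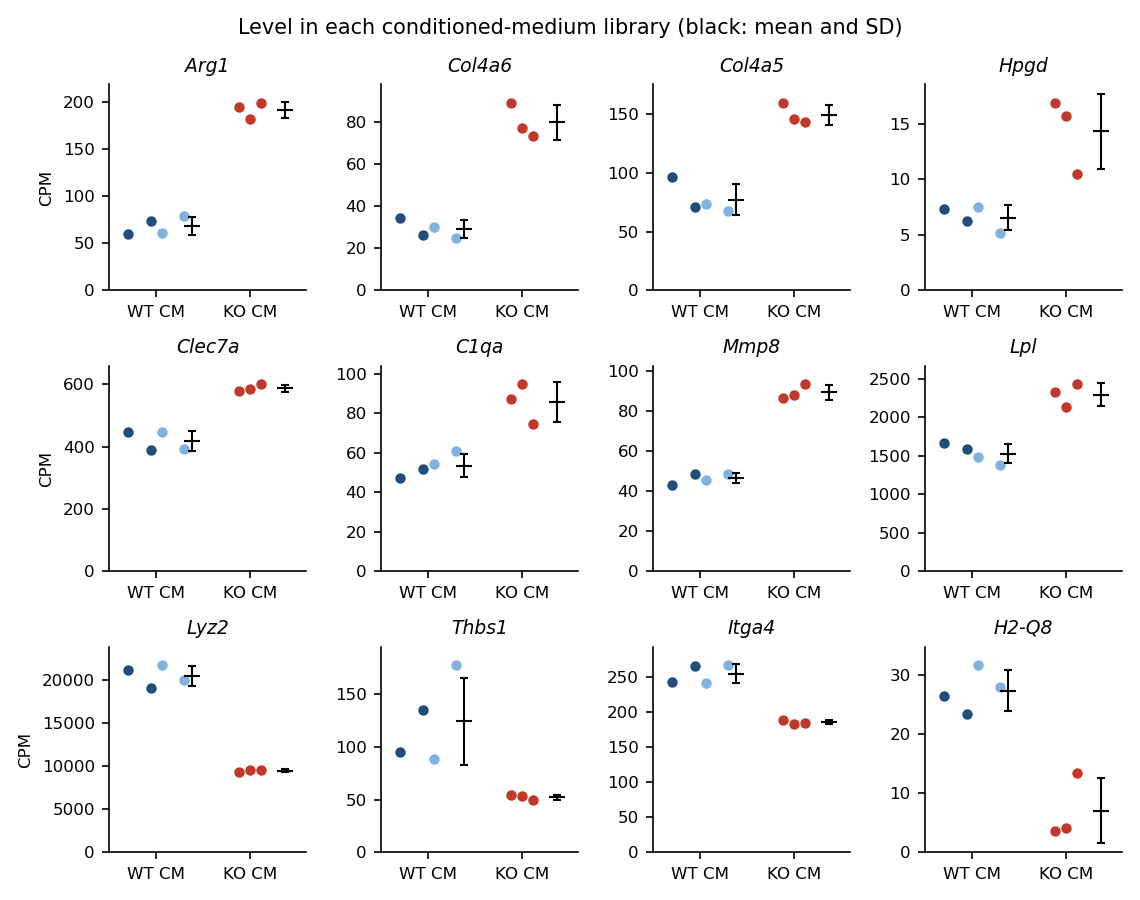
CPM of 12 genes in each CM library: WT libraries 1 and 2 (dark blue), WT libraries 3 and 4 (light blue) and the 3 knockout libraries (red), with mean and SD in black. The groups do not overlap in any of the 12 panels: the knockout is higher from Arg1 to Lpl and lower for Lyz2, Thbs1, Itga4 and H2-Q8.

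Vegfa, the angiogenic growth factor, was lower (-0.37 ± 0.08, adjusted p = 0.017; -0.25 and 0.016 against WT libraries 1 and 2), at 94.2, 91.2 and 87.02 CPM in the knockout libraries and 110.1, 107, 120.2 and 131 CPM in the WT libraries. Its call was lost without some libraries (adjusted p = 0.055 without KO library 2, 0.095 without KO library 3 and 0.053 without WT library 4). Angiogenic factors as a list gave 3 higher (Angptl2, Hgf and Pdgfc) and 3 lower (Fgfr1, Igfbp4 and Vegfa) of 31 tested, and Igfbp4 was not called against WT libraries 1 and 2 (adjusted p = 0.11). Angptl2, an angiopoietin-like factor, rose by 0.44 ± 0.07 and Fgfr1, a fibroblast growth factor receptor, changed by -0.40 ± 0.06 (adjusted p = 0.0015 and 0.0028), and both held with each library left out. In TGF-beta and BMP signaling, 3 of 36 were called higher (Bmpr1a, Eng and Id3) and 2 lower (Gdf3 and Smad7). For this list and the angiogenic factors, the shares over all genes were 3.1% higher and 1.49% lower. Against WT libraries 1 and 2, Id3, Gdf3 and Smad7 were not called (adjusted p = 0.072, 0.1 and 0.27). Eng, endoglin, a co-receptor of the TGF-beta family, rose from 60.7, 63.9, 67.7 and 62.2 to 84.04, 85.2 and 103 CPM (0.51 ± 0.07, adjusted p = 0.0011; 0.55 and 0.0019 against WT libraries 1 and 2).

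All 24 macrophage markers passed the filter on low counts, and 2 were called higher and 3 lower. The complement genes C1qa and C1qb, which encode chains of the recognition molecule C1q, rose together. C1qa stood at 87.2, 94.7 and 74.8 CPM in the knockout libraries and 47.1, 51.7, 54.5 and 60.8 CPM in the WT libraries (0.67 ± 0.09, adjusted p = 0.0011; 0.80 and 0.00015 against WT libraries 1 and 2). C1qb stood at 821, 825 and 817 CPM in the knockout libraries and 657, 644, 636 and 639.9 CPM in the WT libraries (0.35 ± 0.06, adjusted p = 0.0075; 0.34 and 0.0051 against WT libraries 1 and 2). For both, every WT library lay below every knockout library, and the spread within groups was wider for C1qa. Besides Lyz2, the protease Ctss and the pore-forming protein Mpeg1 were called lower (-0.40 ± 0.10 and -0.27 ± 0.06), and Mpeg1 was not called against WT libraries 1 and 2 (-0.17, adjusted p = 0.064). Ctss was higher in WT libraries 3 and 4 (8576 and 7833 CPM) than in 1 and 2 (6911 and 6349), the knockout libraries held 5976, 5852 and 5082 CPM, and the change against WT libraries 1 and 2 was -0.23. Both calls were lost without single libraries (Ctss, adjusted p = 0.066 without KO library 1, 0.07 without KO library 2, 0.16 without KO library 3, 0.089 without WT library 3 and 0.086 without WT library 4; Mpeg1, 0.052 without KO library 2, 0.12 without KO library 3, 0.065 without WT library 3 and 0.063 without WT library 4). Decreases of receptors included Itga4, the alpha-4 integrin, with 189, 184 and 185 CPM in the knockout libraries and 244, 267, 243 and 267 CPM in the WT libraries (-0.46 ± 0.06, adjusted p = 0.00051; -0.45 and 0.00062 against WT libraries 1 and 2), and Fcgr4, an activating receptor for IgG (-0.38 ± 0.06, adjusted p = 0.0039; -0.27 and 0.012 against WT libraries 1 and 2). Fcna, ficolin A, a lectin that starts the complement cascade, fell by 0.66 on the log2 scale, to 59.3, 58.8 and 58.5 from 85.4, 83.02, 95.3 and 108 CPM.

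Genes of classical activation and inflammation were set beside the 3.1% of all genes called higher and the 1.49% called lower. Of 23 classical activation genes, edgeR called 0 higher (1 at an unadjusted p below 0.05, 1 by DESeq2 and 0 by limma-voom) and 1 lower (Cd86, a costimulatory ligand, -0.57 ± 0.14), with a median of -0.37 against all WT libraries and -0.09 against WT libraries 1 and 2. Cd86 was not called against the latter (adjusted p = 0.2). Tnf, Il1b and Il6, the main inflammatory cytokines, were below 10 CPM in every CM library and did not pass (-0.33 ± 0.18, -1.30 ± 0.40 and -0.57 ± 0.75; adjusted p = 0.27, 0.079 and 0.68). Cd38, an enzyme that consumes NAD, stood at 0.34 ± 0.15 (adjusted p = 0.2). Il10, an anti-inflammatory cytokine, overlapped between the groups (-0.04 ± 0.20, adjusted p = 0.92). Nlrp3, the inflammasome sensor, fell from 56.4, 59.8, 61.4 and 63.2 to 47.1, 46.5 and 46.8 CPM (-0.36 ± 0.06, adjusted p = 0.0031; -0.30 and 0.0091 against WT libraries 1 and 2). Of 62 interferon response genes, 0 rose (also 0 by DESeq2, by limma-voom and at an unadjusted p below 0.05) and 2 fell, Gbp9 (-0.39 ± 0.07) and Slfn4 (-1.21 ± 0.33), of which Slfn4 was not called against WT libraries 1 and 2 (adjusted p = 0.057). The list's median was -0.18 against all WT libraries and 0.02 against WT libraries 1 and 2, and its sum was 6660, 6073 and 5690 CPM in knockout, 6407 and 6082 CPM in WT libraries 1 and 2, and 8153 and 7259 CPM in 3 and 4. Beside WT libraries 1 and 2 the sums of the 2 groups overlapped.

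Among secreted signals, Csf1, the growth factor of macrophages, fell from 8.27, 8.26, 8.89 and 8.14 to 5.91, 5.57 and 5.35 CPM (-0.58 ± 0.10, adjusted p = 0.0034; -0.55 and 0.03 against WT libraries 1 and 2), and Il18rap, a subunit of the interleukin 18 receptor, rose (0.54 ± 0.09, adjusted p = 0.0035; 0.59 and 0.012 against WT libraries 1 and 2). Of 42 cytokines and their receptors, 1 was called higher and 4 lower (Csf1, Ifngr1, Il16 and Il18). Beside this list and the chemokines below, 3.1% of all genes were called higher and 1.49% lower. Il16 and Il18 were not called against WT libraries 1 and 2 (adjusted p = 0.14 for each). Of 11 CXC and related chemokines, 3 were called higher: Cxcl14, an attractant of monocytes (0.58 ± 0.11, adjusted p = 0.0078; 0.57 and 0.011 against WT libraries 1 and 2), and the platelet chemokines Pf4 and Ppbp (0.70 ± 0.15 and 0.91 ± 0.25). Ppbp was not called against WT libraries 1 and 2 (adjusted p = 0.069), and the calls of Cxcl14 and Pf4 were lost without KO library 3. Summed platelet markers, which hold Pf4 and Ppbp, lay at 409 to 462 CPM in knockout and 410 to 419 CPM in WT libraries 1 and 2, and down to 288 CPM in all WT libraries. Their part in the Pf4 result was not tested. Ccl12, a monocyte attractant, was 1 of 14 CC chemokines called (0.62 ± 0.15, adjusted p = 0.034; 0.69 and 0.049 against WT libraries 1 and 2), and its call was lost without single libraries (adjusted p = 0.076 without KO library 1, 0.12 without KO library 2, 0.088 without KO library 3, 0.067 without WT library 1, 0.075 without WT library 3 and 0.068 without WT library 4). Ccl2, its close relative, stood at 0.32 ± 0.12 (adjusted p = 0.13).

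Among 29 genes that restrain T cells, 2 were called higher, Arg1 and Cd274, and 2 lower, Cd24a and Cd47. Over all genes 3.1% were called higher and 1.49% lower. Cd274 encodes PD-L1, the ligand of the T cell checkpoint PD-1. It stood at 85.6, 86.4 and 87.97 CPM in the knockout libraries and 72.3, 73.1, 72.4 and 71.05 CPM in the WT libraries, so the groups were separate by a small margin (0.26 ± 0.06, adjusted p = 0.016; 0.26 and 0.038 against WT libraries 1 and 2). The call was lost without KO library 3 (adjusted p = 0.078). Cd24a, a ligand of an inhibitory Siglec receptor, stood at -0.36 ± 0.08 (-0.35 and 0.034 against WT libraries 1 and 2), and was not called without some libraries (adjusted p = 0.07 without KO library 1, 0.11 without KO library 3 and 0.061 without WT library 3). Cd47, the signal against phagocytosis, was not called against WT libraries 1 and 2 (adjusted p = 0.17).

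Lipid and sugar metabolism held firm increases beside a few decreases. The shares called over all genes were 3.1% higher and 1.49% lower. Lpl, lipoprotein lipase, had 2323, 2135 and 2429.7 CPM in the knockout libraries and 1668, 1582, 1488 and 1377 CPM in the WT libraries (0.59 ± 0.07, adjusted p = 0.00027; 0.51 and 0.00024 against WT libraries 1 and 2). Abcg1, a cholesterol exporter, rose from 266, 253, 252 and 233 to 328, 329 and 332 CPM (0.40 ± 0.05, adjusted p = 0.00055; 0.35 and 0.0012 against WT libraries 1 and 2). For both genes every knockout library lay above every WT library. Of 30 genes of sterol efflux and lipoproteins, 4 were called higher (Abca5, Abca9, Abcg1 and Lpl) and 2 lower, with a median of -0.01. The 2 were the cholesterol exporter Abca1 (-0.23 ± 0.06; -0.23 and 0.032 against WT libraries 1 and 2) and Pltp, the phospholipid transfer protein (-0.29 ± 0.06), which was not called against WT libraries 1 and 2 (adjusted p = 0.054). Srebf2, the transcription factor of sterol synthesis, rose by 0.30 ± 0.06 and Fdps and Dhcr7, enzymes of that pathway, by 0.43 ± 0.10 and 0.31 ± 0.07, 3 of 24 genes called higher and 0 lower (1 lower by DESeq2, by limma-voom and at an unadjusted p below 0.05). Dhcr7 was not called against WT libraries 1 and 2 (adjusted p = 0.15), and the Fdps call was lost without single libraries (adjusted p = 0.054 without KO library 1, 0.07 without KO library 2, 0.098 without KO library 3, 0.073 without WT library 3 and 0.072 without WT library 4). Me1, malic enzyme, which supplies NADPH, rose from 4.09, 3.26, 4.68 and 5.64 to 8.88, 8.61 and 9.995 CPM (1.04 ± 0.14, adjusted p = 0.0011; 1.33 and 0.00013 against WT libraries 1 and 2). Hpgd, which inactivates prostaglandins, rose from 7.35, 6.23, 7.499 and 5.17 to 16.8, 15.7 and 10.5 CPM (1.13 ± 0.16, adjusted p = 0.0015; 1.07 and 0.0033 against WT libraries 1 and 2), with KO library 3 the lowest of the knockout. Pla2g7, the hydrolase of platelet-activating factor, fell from 25.1, 26.1, 32.5 and 38.8 to 18.9, 18.2 and 20.6 CPM (-0.68 ± 0.13, adjusted p = 0.0093; -0.41 and 0.03 against WT libraries 1 and 2).

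Of 30 glycolysis genes, 7 were called higher, all in both fits, and 0 lower (1 at an unadjusted p below 0.05, 0 by DESeq2 and limma-voom), with a median of 0.16 (0.08 against WT libraries 1 and 2). The 7 were Aldoa, Eno1, Ldhb, Pfkl, Pgam1, Pgk1 and Pkm. Ldhb, the heart-type subunit of lactate dehydrogenase, rose from 2.08, 2.91, 3.05 and 2.53 to 4.92, 5.08 and 4.78 CPM (0.89 ± 0.18, adjusted p = 0.01; 0.98 and 0.0058 against WT libraries 1 and 2), and Aldoa, the muscle-type aldolase, from 1076, 1054, 1078 and 1124 to 1258, 1249 and 1239 CPM (0.21 ± 0.04, adjusted p = 0.014; 0.24 and 0.0074 against WT libraries 1 and 2). The number called fell to 1 without KO library 1, 3 without KO library 2 or 3 and 2 without WT library 3 or 4, and to 3 or 4 without a knockout library of control medium. Pdk1, which keeps pyruvate out of mitochondria, held in every such fit (0.35 ± 0.05, adjusted p = 0.0014; 0.35 and 0.0064 against WT libraries 1 and 2), at 95.1, 87.8 and 92.3 CPM in the knockout libraries and 71.8, 72.7, 69.8 and 72.8 CPM in the WT libraries. Of 48 genes of oxidative phosphorylation edgeR called 0 (median 0.04), with 4 higher and 8 lower at an unadjusted p below 0.05. DESeq2 called 1 and limma-voom 5 of them higher. Of 40 immediate early genes edgeR and DESeq2 called 0 and limma-voom 1, lower, with 1 higher and 3 lower at an unadjusted p below 0.05.

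The class I histocompatibility genes H2-Q8 and H2-Q6 showed the largest firm decreases where the mean reached 4 CPM. H2-Q8 stood at 3.602, 4.104 and 13.4 CPM in the knockout libraries and 26.4, 23.4, 31.6 and 27.9 CPM in the WT libraries (-1.93 ± 0.40, adjusted p = 0.015; -1.77 and 0.019 against WT libraries 1 and 2), and H2-Q6 at 6.595, 6.91 and 17.2 CPM in the knockout libraries and 30.5, 26.9, 36.4 and 37.3 CPM in the WT libraries (-1.66 ± 0.34, adjusted p = 0.013; -1.45 and 0.019 against WT libraries 1 and 2). KO library 3 was 2-fold or more above KO libraries 1 and 2 in both, and the calls were lost without KO library 1 or 2 (H2-Q8, adjusted p = 0.066 without KO library 1 and 0.064 without KO library 2; H2-Q6, 0.068 without KO library 1 and 0.063 without KO library 2). These genes are near-identical copies on chromosome 17, so the values are uncertain, and they were not called in control medium (-0.29 ± 0.37 and -0.38 ± 0.32). H2-D1, a classical class I gene, stood at -0.16 ± 0.05 (adjusted p = 0.08). Gstm3, a glutathione transferase picked after its values were seen, had a mean below 4 CPM, with 0.051, 0.106 and 0.033 CPM in the knockout libraries and 4.91, 1.14, 1.602 and 3.21 CPM in the WT libraries (-5.40 ± 1.22). Other firm decreases were in Wwc2, a regulator of Hippo signaling, Padi4, which converts arginine residues of histones to citrulline, Mcoln3, a lysosomal calcium channel, and H2bc21, a histone H2B gene. Wwc2 fell from 29.8, 28.3, 34.9 and 29.9 to 17.6, 18.03 and 18.2 CPM, Padi4 from 33.8, 37.2, 35.1 and 34.7 to 18.8, 22.2 and 21.3 CPM and Mcoln3 from 21.7, 17.3, 19.3 and 17.9 to 10.4, 10.8 and 11.7 CPM. Their log2 fold changes were -0.77 ± 0.07, -0.76 ± 0.08 and -0.80 ± 0.09 (adjusted p = 3.8e-05, 0.00016 and 0.00026), and -0.72 ± 0.07, -1.03 ± 0.09 and -1.01 ± 0.09 in control medium.

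By position, called genes were spread over all chromosomes, from 2.38% of tested genes on an autosome to 5.84% on X, Y aside. On the X chromosome 25 of 428 genes were called higher (5.84%) and 0 lower, against 3.1% higher and 1.49% lower over all genes. Of the 25, 15 were firm, although the median change of X genes was 0.00. In control medium 17 X genes were called higher and 4 lower. The called genes in CM were all higher against all 4 WT libraries. The 15 firm X genes include Xlr, Chic1, Col4a6, Spry3, an inhibitor of receptor tyrosine kinase signaling (1.21 ± 0.12), Col4a5, Kif4 and Cenpi, a centromere protein (0.75 ± 0.10). Around the 2 modified loci the share called was set beside the 4.59% of all placed genes, with no test of the difference. Within 5 Mb of Lyz2, 6 of 38 were called (15.8%), and within 5 Mb of Ezh2, 4 of 45 (8.89%), each count holding the locus itself. Near Lyz2, Yeats4, a chromatin reader, and Mdm1, a centriole protein, rose by 0.31 ± 0.06 and 0.61 ± 0.09, and Xpot, the exportin of tRNA, and Zfc3h1, an RNA decay factor, changed by -0.25 ± 0.06 and -0.28 ± 0.06. Cul1, a ubiquitin ligase scaffold next to Ezh2, changed by -0.26 ± 0.05 (adjusted p = 0.011). The other called genes of these windows were Atxn7l3b near Lyz2 (-0.33, adjusted p = 0.046), and Mpp6 (0.37, 0.025) and Krba1 (1.04, 0.013) near Ezh2. Atxn7l3b and Krba1 were not called against WT libraries 1 and 2 (adjusted p = 0.2 and 0.12). The cause of these changes was not tested.

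The knockout effect in CM was then set beside that in control medium, which rests on other libraries of the same 2 genotypes. In control medium 375 genes were called higher (2.82%) and 333 lower (2.5%). Of the 413 called higher in CM, 159 were also called higher there (38.5% of the CM list and 42.4% of the control list), and of the 198 called lower, 43 (21.7% and 12.9%). No gene was called in opposite directions, and 92.7% of the genes called higher and 88.9% of those called lower in CM had the same sign in control medium. These counts and shares use all 4 WT libraries, and no share of equal sign over all genes is set beside them. Of the 245 firm higher genes, 87 were called higher in control medium in both fits. Of the 84 firm lower genes, 21 were called lower there in both fits. Over all 13311 genes the 2 effects correlated with r = 0.54 (a description across genes, which are not independent, and WT libraries 3 and 4 stand apart in both media), and with r = 0.23 over 13250 genes against WT libraries 1 and 2. Mitosis genes gave 22 calls in control medium with a median of 0.46, Col4a6 rose by 1.81 ± 0.12 and Xlr by 3.14 ± 0.23. Cdc45 and Lpl, firm in CM, stood at 0.20 ± 0.18 (adjusted p = 0.5) and 0.19 ± 0.07 (0.099).

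**Figure D5:**
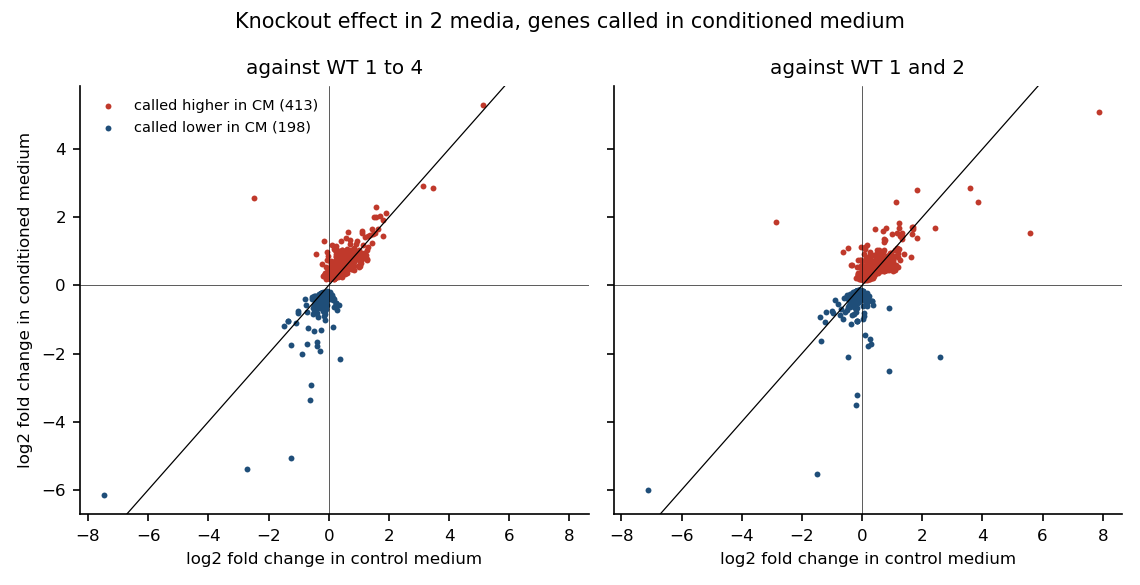
Log2 fold change, knockout against WT, in CM (vertical) and in control medium (horizontal) for the 413 genes called higher (red) and 198 called lower (blue) in CM, against all WT libraries (left) and WT libraries 1 and 2 (right), with the line of equality. On the left, 383 of the red and 176 of the blue points lie in the quadrants of equal sign.

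The test of the difference itself called 0 of 13311 genes at an adjusted p below 0.05 with edgeR, while 1050 (7.89%) had an unadjusted p below 0.05 and DESeq2 called 60 positive and 24 negative. Against WT libraries 1 and 2, edgeR called 9 genes positive (0.0674%) and 2 negative (0.015%). The 2 were Folr2, a folate receptor, and Rpl22l1, a ribosomal protein paralog, picked after their values were seen. Igf2bp2, an RNA-binding protein of the fetal programme, had the smallest p over all libraries (adjusted p = 0.11). It stood at 0.21 ± 0.07 in CM and -0.45 ± 0.08 in control medium. Agbl5, a deglutamylase of tubulin, fell in CM (-0.58 ± 0.10) and stood at 0.33 ± 0.10 in control medium, and H2-Ab1, a class II histocompatibility gene, stood at 0.06 ± 0.09 in CM and rose in control medium (0.66 ± 0.08). Clec10a, a galactose-binding lectin, and Lrp12, a lipoprotein receptor relative, stood at 0.08 ± 0.06 and 0.08 ± 0.06 in CM and fell in control medium (-0.35 ± 0.06 and -0.35 ± 0.06).

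Markers of other cells of the marrow were mostly not called, and their summed levels ranged widely between cell types. Summed CPM of fibroblast and stroma markers was 1.24 to 1.33 in knockout and 1.25 to 1.58 in WT libraries, with Col1a2, Col3a1, Lum, Lepr and Postn at 0 in all 7. For B cell markers the sums were 1.40 to 2.49 and 1.25 to 1.92, and for endothelial markers 11.7 to 14.01 and 12.3 to 17.1. Hepatocyte and hepatoma markers reached 5.56 to 6.38 and 4.69 to 6.74, with Alb and Epcam at 0. Monocyte markers reached 827 to 1153 CPM in knockout and 872 to 1019 CPM in WT, and 1 of 14 was called, Vcan, a proteoglycan, higher. Of 11 dendritic cell genes tested 1 was called, Cd209a, lower, and their sum was 350.3 to 364 CPM in knockout and 338 to 365 CPM in WT libraries. Of 8 osteoclast markers edgeR and DESeq2 called 0 and limma-voom 1, lower, with 2 lower at an unadjusted p below 0.05, and their sum was 298 CPM in knockout and 280.3 to 323 CPM in WT libraries.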

How the data were processed

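RNA was extracted with the RNeasy mini kit, libraries were made with the QIAseq Stranded mRNA Select kit, and read pairs of 150 bases were sequenced on a NovaSeq 6000, per the labels' protocols. The deposited file holds raw read counts per exon of 25239 gene symbols, with 427386 entries and 0 that name no gene. The submitters' processing notes name HISAT2 as a tool and mm10 as the genome build. The counting tool, annotation and strand setting are not given in the sources used here, so overlapping and antisense genes cannot be separated. Repeated exon entries (196941, with 48.6% of counts) were used once, and the 230445 distinct exons were summed per gene. A fragment that spans several exons is counted in each, which raises gene totals and makes counts less independent.

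Genes with low counts were removed (filterByExpr in edgeR 4.0.16, minimum count 10 and total 15, R 4.3.3). A quasi-likelihood model with TMM scaling and 4 group means was fitted to all 14 libraries, and a second to the libraries without WT 3 and 4. Calls used a Benjamini-Hochberg adjusted p below 0.05 over all genes tested. Levels are in CPM, read counts as edgeR scales them to the TMM-scaled library total, and standard errors are approximate, from the fold change and the F statistic. Alternatives were other scalings, filters, exon choices, WT sets, a batch term, a replicate block, limma-voom (3.58.1), DESeq2 (1.42.0) and the omission of each library. The fit was tested on simulated data. Depth was 40.2 to 85.8 M counts per CM library, so low genes carry the largest counting error.

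The members and gene lists were chosen with earlier results of these data known. Named were Ezh2, the 12 largest increases and 12 largest decreases among firm genes whose mean over the 7 CM libraries reached 4 CPM, the 8 largest increases among firm genes with a WT mean below 1 CPM, up to 4 genes of each list with the smallest p, Arg1, Mrc1, Retnla, Chil3, Cd163, Il10, Tnf, Il1b, Il6, Cd274, Vegfa, Cd38, Ccl2, Lyz2, Ezh1, Cdkn2a and the 5 smallest interaction p in each direction. Clone, predicted and antigen receptor symbols were left out of the size rankings. The promoter examples Ube2c, Cdc20 and Ccnb2, the neighbours of Lyz2 and Ezh2, Spry3, Cenpi, Gstm3, Rn45s and the remaining called members of short lists were named after their values were seen. No library was left out of the first model. The count over the Polycomb repressive complex 1 list is not reported here.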

Additional observations from a re-analysis of the deposited data

Results flagged for a closer look

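Among the 4 WT CM libraries, 9 of 253 named genes had 1 library set apart from the other 3 by a gap that Dixon's 95% limit does not allow for, and chance alone does so in about 1 in 20 groups. The highest WT library was set apart for Atf3, a stress-induced transcription factor, at 85.4 CPM, for Atp9a at 0.276 CPM, and for Fcrls, an Fc receptor-like gene, at 22.2 CPM. It was likewise set apart for Lrp12 at 203.8 CPM, for Nsd1, a histone methyltransferase, at 99.0 CPM, and for Ppbp at 1.44 CPM. The lowest WT library was set apart for Ccl12 at 5.04 CPM, for Dot1l, a histone methyltransferase, at 38.2 CPM, and for H2-T22, a class I histocompatibility gene, at 167 CPM.

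The knockout effect differed between the media for Igf2bp2 and Anxa3, an annexin, when WT libraries 1 and 2 served as controls. The effect in CM exceeded that in control medium by 0.56 on the log2 scale for Igf2bp2 (edgeR, adjusted p = 0.036) and by 0.41 for Anxa3 (adjusted p = 0.042). With all 4 WT libraries neither passed the test.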

How the results depend on the processing

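Against the 413 genes higher and 198 lower, the counts were 141 and 32 at an adjusted p below 0.01, 46 and 21 with a 2-fold minimum, 726 and 493 with DESeq2, and 1041 and 753 with limma-voom. They were 212 and 74 with the 5 CM libraries of WT 1, WT 2 and the knockout alone, and 2406 and 2385 with WT libraries 3 and 4 as the controls. The number higher was 272 when each gene was represented by its most-counted exon. The number lower was 112 with the 7 CM libraries alone, 129 against WT libraries 1 and 2, and 327 with a batch term. Fewer samples enter the fits of 5 and 7 libraries; otherwise the cause was not tested. Against WT libraries 1 and 2, the counts of 349 and 129 became 212 and 74 with the 5 CM libraries, and the number lower was 228 with DESeq2. The test between media called 60 genes positive and 24 negative with DESeq2, 9 and 2 against WT libraries 1 and 2, and 87 and 77 with a batch term. Ezh2 stood at -0.34 (adjusted p = 0.054) against WT libraries 1 and 2 and at -0.35 (0.107) in the 5 CM libraries. Aldoa was reversed with its most-counted exon, at -0.0036 (adjusted p = 0.988).

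With 1 library left out, genes higher ranged from 162 to 469 and genes lower from 55 to 281. Against WT libraries 1 and 2 these ranges were 56 to 329 and 18 to 135. The low ends leave WT library 2 alone in its group, which is assumed to vary like the other groups. The test between media gave 0 to 2 positive and 0 to 1 negative genes, and Ezh2 lay between -0.45 and -0.33. Exons 18 and 19 lay at 9.55 to 14.6% in the knockout and 90.6 to 105.1% in WT. Of 137 named genes that were called, 67 were called in every fit that left out 1 library and 46 under every alternative run. The replicate block gave 403 genes higher and 178 lower, and 0 between media. Same-numbered knockout and WT libraries did not deviate together (r = -0.003, 0.004 and -0.098), so the numbers were not taken as pairs.

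WT libraries 3 and 4 differ from all others in both media, no knockout library stands with them, and the labels name no batch. Genes below 1 CPM rest on few counts, and fitted folds there depend on the prior count.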
